A study of Mus musculus with 12 samples.

Results

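Gluconeogenesis, the making of glucose from lactate, glycerol and amino acids, was followed at the RNA level in sorted intestinal stem cells (ISCs) through 9 genes, chosen by symbol: *G6pc*, *G6pc3*, *Pck1*, *Pck2*, *Fbp1*, *Pcx* and *Slc37a4*, which encode enzymes and a transporter of the pathway, and *Ppargc1a* and *Ppargc1b*, which encode the PGC-1 coactivators. All 9 were found among the 47729 genes of the count table. The cells were the brightest green fluorescent fraction (Lgr5-EGFPhi) of small intestinal crypts from *Lgr5-EGFP-IRES-CreERT2* knock-in mice, whose fluorescent protein is driven by the *Lgr5* locus, active in stem cells, and all 4 groups carried this allele. The sort kept live EpCAM+ cells and left out CD31+, CD45+, TER119+ and CD24+ cells. The mice were 8 to 10 weeks old and of both sexes, and the sex of each library was not given.

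There were 3 libraries in each group. Ctrl mice were not restrained. Mice of the stress group, which the labels call CRS, were restrained for 3 h, once according to the methods for this experiment. The restraint protocol kept control mice without food and water over the same time. Vehicle mice received 1 intraperitoneal injection of 20% sulfobutylether-β-cyclodextrin, and CORT mice received 5 mg/kg corticosterone, the main glucocorticoid of rodents, in that solution. The libraries are named by the numbers of their labels: Ctrl 1, 2 and 3, stress 1+2, 3 and 4+5+6, vehicle 3, 5 and 6, and CORT 2, 4 and 5. The joined numbers read as pools of mice, but neither this nor that the other libraries came from separate mice is stated, so the p-values measure the spread between these libraries. Total counts ran from 15934907 to 31280267 in the Ctrl, stress and vehicle libraries and were 69533214, 59689732 and 29426183 in CORT 2, 4 and 5.

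Gluconeogenesis runs much of glycolysis backwards and bypasses its irreversible steps with enzymes of its own. Pyruvate carboxylase makes oxaloacetate, phosphoenolpyruvate carboxykinase turns it into phosphoenolpyruvate, fructose-1,6-bisphosphatase removes a phosphate, and glucose-6-phosphatase, fed by the transporter SLC37A4 in the endoplasmic reticulum, releases free glucose. Liver and kidney are the main sites, the small intestine can express the pathway in its enterocytes, and glucocorticoids, glucagon and PGC-1α are known to raise *Pck1* and *G6pc* in liver.

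The genes differed widely in their level in unstressed ISCs. Per length, as FPKM in the Ctrl libraries (mean ± SD, n = 3), *G6pc3* stood highest at 49.4 ± 6.22, followed by *Pck2* at 41.6 ± 0.776, *Fbp1* at 30.1 ± 2.68 and *Slc37a4* at 19.4 ± 0.660. The next were *Ppargc1b* at 6.25 ± 0.996, *Pcx* at 3.42 ± 0.328, *Ppargc1a* at 1.87 ± 0.236 and *Pck1* at 0.609 ± 0.0603 FPKM. *G6pc* was listed at 0 in all 3 libraries. No pair of neighbours in this order overlapped in its Ctrl libraries. The ubiquitous phosphatase gene *G6pc3* and the mitochondrial carboxykinase gene *Pck2* were thus the abundant forms in Ctrl ISCs, and the FPKM of *Pck2* was 63.6 to 76.4 times that of the cytosolic form *Pck1* within the libraries. *G6pc3* had a higher FPKM than 96.8% of the 47593 genes listed, *Ppargc1a* than 77.3% and *Pck1* than 73.4%. Genes at 0 FPKM are among the 47593, and only 13722 genes passed the filter on low counts in stress vs Ctrl. These shares thus do not mean that *Ppargc1a* and *Pck1* stood high among expressed genes.

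The effect of restraint was read from the stress and Ctrl libraries. *Pck1*, *Pck2* and *Ppargc1a* rose, and no gene of the 9 fell, at an adjusted p below 0.05 (edgeR's quasi-likelihood test with Benjamini-Hochberg adjustment over 13722 genes). Of all genes tested, 1.30% were called higher and 0.590% lower. *G6pc* passed the filter on low counts only through the stress libraries, so it had to differ and its test is not counted here, which leaves 3 calls among the other 8. *Pck1* and *Ppargc1a* also changed by more than 2-fold, as did 0.612% of all genes upwards. The median over the 9 genes was a log2 fold change of 0.26, with *G6pc* either as fitted or at its bound below, against 0.00 (-0.00281) for all genes tested. *G6pc* had to differ and stands on the higher side of this median, which is therefore a description only. In bulk RNA, more cells of a type and more RNA per cell cannot be told apart.

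**Figure D1:**
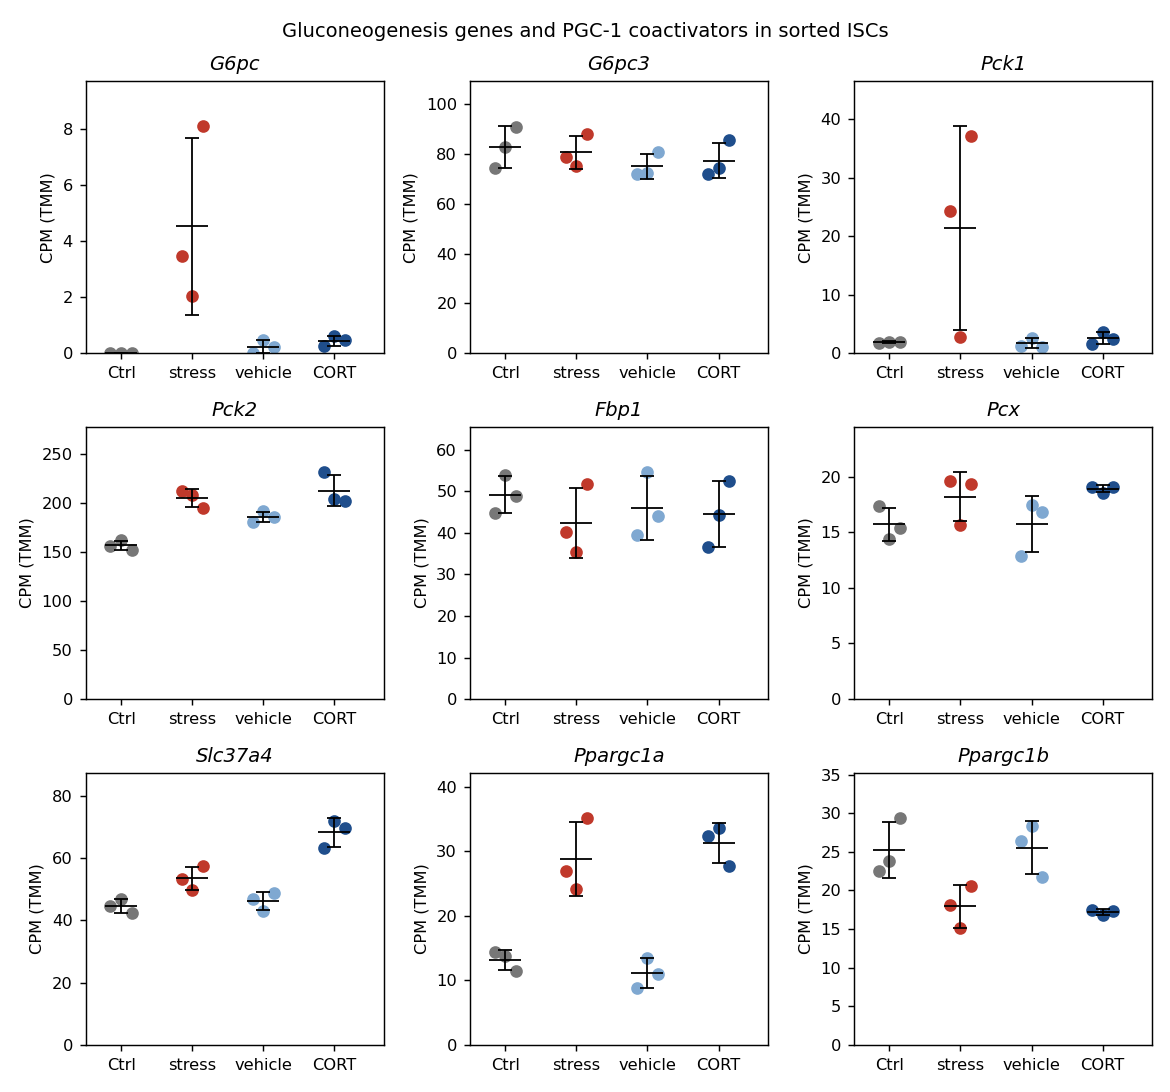
Level of each of the 9 genes in the 12 libraries, in CPM (vertical axes from 0, each panel with its own scale). Points are libraries, in the order of their labels, and bars are mean ± SD (n = 3). *G6pc* and *Pck1* stand high in the stress group with a wide spread, whereas *Ppargc1a* is high in both stress and CORT.

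*G6pc*, the glucose-6-phosphatase gene of liver, kidney and intestine (chr11:101367561-101377903, plus strand, mm10), had no count in any Ctrl library. The stress libraries held 56, 34 and 141 counts, or 3.46, 2.05 and 8.08 CPM (counts scaled to library size with TMM factors), in libraries 1+2, 3 and 4+5+6. A read pair gives up to 4 counts in this table, so these are few molecules, although each stress library stood above each Ctrl library. Taking 12 counts (3 read pairs) as the limit that a count of 0 allows in a Ctrl library, the stress mean was at least 6.35-fold higher, and the lowest stress library at least 2.82-fold higher. This limit covers counting error only, and no p is given. The widely expressed paralogue *G6pc3* (chr11:102189620-102194081) had 74.2, 82.8 and 90.9 CPM in Ctrl and 78.9, 74.9 and 87.8 CPM in stress, overlapping groups with a log2 fold change of -0.03 ± 0.10 (SE) and an adjusted p of 0.918.

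*Pck1*, the cytosolic carboxykinase gene and a classical hormone target in liver (chr2:173153048-173159273, plus strand), was at 1.69, 1.96 and 2.00 CPM in Ctrl. In stress it was at 24.3, 2.71 and 37.1 CPM in libraries 1+2, 3 and 4+5+6. Libraries 1+2 and 4+5+6 carried most of the difference, and library 3 lay just above the Ctrl range. The fitted log2 fold change was 3.50 ± 0.73 (SE, adjusted p = 0.0441, edgeR). The call was lost without any 1 Ctrl library and without stress 1+2 (log2 fold change 3.41, adjusted p = 0.139) or stress 4+5+6 (2.84, adjusted p = 0.124), and without stress 3 it was 4.03 with an adjusted p of 1.91e-05. Stress 3 alone against Ctrl, a comparison chosen after seeing the data, gave a log2 difference of 0.53, which is 1 library and is given as a value with no test.

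Markers of enterocytes, the absorptive cells that follow ISCs in the lineage, moved with *Pck1* across the stress libraries. The 12 markers summed to 673, 696.3 and 656.5 CPM in Ctrl 1, 2 and 3, and to 1725, 848.1 and 3277 CPM in stress 1+2, 3 and 4+5+6. Their most abundant gene was *Anpep*, a brush border peptidase, at 228.6 to 248.4 CPM in Ctrl and 388.4, 234.0 and 640.4 CPM in the stress libraries, and no marker was at 0 in any library. The library with the highest *Pck1* and *G6pc* thus had the highest enterocyte markers, and the stress library with the lowest *Pck1* and *G6pc* had the lowest enterocyte markers. Of the 12 markers 7 were called higher in stress and all 12 had a positive log2 fold change, with a median of 2.84. Examples are *Alpi*, intestinal alkaline phosphatase, with a log2 fold change of 3.60 ± 0.61 (adjusted p = 0.0190), and *Sis*, sucrase-isomaltase, with 3.35 ± 0.58 (adjusted p = 0.0198). The part of these markers in the *Pck1* and *G6pc* differences was not tested.

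Markers of other cell types were read in the same way. Goblet cell markers (6 genes, led by *Fcgbp*) summed to 469.4 to 592.1 CPM in Ctrl and to 896.5, 483.0 and 1433 CPM in stress 1+2, 3 and 4+5+6, with *Zg16* and *Clca1* called higher. The 6 Paneth cell markers, with *Defa24* or *Lyz1* at the highest CPM in each of these libraries, summed to 151.6, 116.9 and 139.8 CPM in Ctrl and to 233.2, 149.6 and 227.0 CPM in stress 1+2, 3 and 4+5+6. All 6 had a positive log2 fold change in stress, with a median of 0.57, and edgeR called *Mmp7* higher and DESeq2 called 2. ISC markers stayed abundant, led by *Olfm4* at 6844 to 10290 CPM over the 12 libraries, and edgeR called *Ascl2* alone of the 6 lower in stress (DESeq2 called 2), with a log2 fold change of -1.23 ± 0.10 (adjusted p = 3.36e-04). Of the enteroendocrine and tuft cell markers, led by *Chgb* and by *Pou2f3* or *Trpm5*, edgeR and DESeq2 called 0 in stress, with 1 of each list at an unadjusted p below 0.05. Blood markers summed to 1.45 to 5.18 CPM over the stress and Ctrl libraries, led by *Cd68*, with *Hbb-bs* and *Lyz2* at 0 in each of these libraries, and stroma and endothelium markers summed to at most 1.66 CPM there. *Fbp1*, also a gene of absorptive cells, was at 40.2, 35.3 and 51.8 CPM in stress 1+2, 3 and 4+5+6, the same order as the enterocyte markers, and at 44.9 to 53.8 CPM in Ctrl.

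**Figure D2:**
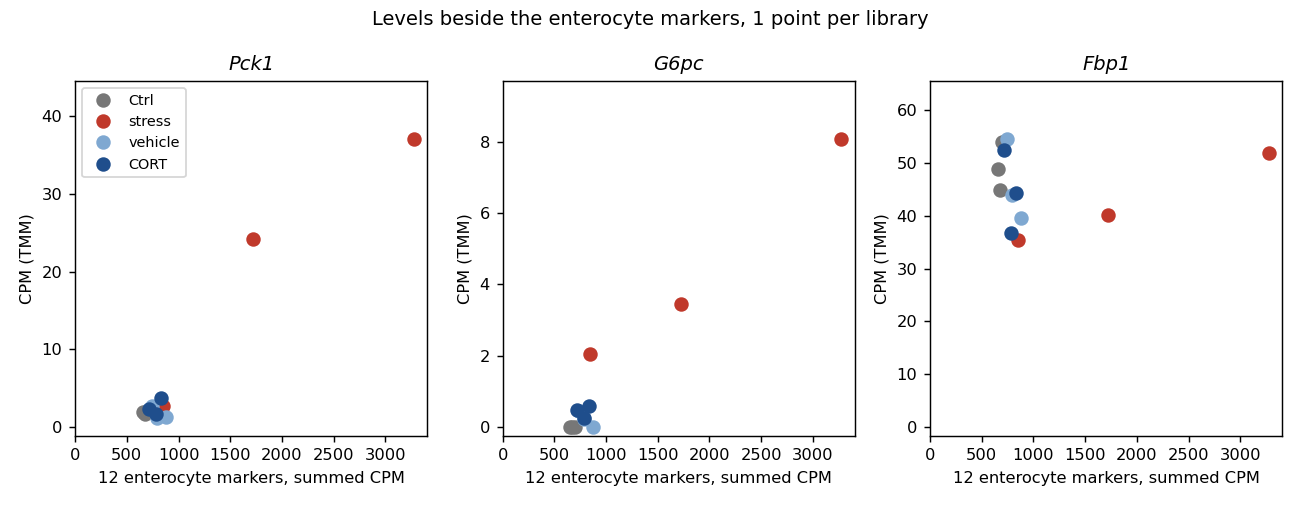
CPM of *Pck1*, *G6pc* and *Fbp1* (vertical axes) against the summed CPM of 12 enterocyte markers (horizontal axis), 1 point per library, coloured by group. Stress 1+2 and 4+5+6 stand apart on both axes for *Pck1* and *G6pc*, at 1725 and 3277 CPM of markers. Their *Fbp1* levels, 40.2 and 51.8 CPM, lie within the range of the Ctrl, vehicle and CORT libraries. Stress 3, at 848.1 CPM of markers, lies within that range for *Pck1* (2.71 CPM) and above it for *G6pc* (2.05 CPM).

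*Pck2*, the mitochondrial carboxykinase gene (chr14:55540266-55550017, plus strand), changed less but with less spread. It was at 156, 162 and 152 CPM in Ctrl and at 212.0, 208.1 and 194.4 CPM in stress, with no overlap between the groups. The log2 fold change was 0.39 ± 0.08 (SE, adjusted p = 0.0382, edgeR), which is 1.31-fold. Leaving out any 1 library except stress 3 raised the adjusted p to between 0.0636 and 0.193, with log2 fold changes of 0.37 to 0.43. Unlike *Pck1*, *Pck2* in stress 3 lay between the other stress libraries.

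The remaining steps of the pathway did not pass the test in stress. *Fbp1*, fructose-1,6-bisphosphatase (chr13:62864753-62888282, minus strand), had a log2 fold change of -0.21 ± 0.15 and an adjusted p of 0.565, on 44.9, 53.8 and 48.8 CPM in Ctrl and 40.2, 35.3 and 51.8 CPM in stress. *Pcx*, pyruvate carboxylase (chr19:4510472-4621752, plus strand), had 0.22 ± 0.16 and an adjusted p of 0.605, on 14.4 to 17.3 CPM in Ctrl and 15.7 to 19.6 CPM in stress. Its value is uncertain, since *Lrfn4* lies within it on the opposite strand with 393 to 2098 counts and the counting was not stated to use strand. *Slc37a4*, the glucose-6-phosphate transporter (chr9:44398176-44402963, plus strand), was at 44.7, 46.8 and 42.5 CPM in Ctrl and at 53.3, 49.9 and 57.4 CPM in stress. These groups did not overlap, but the log2 fold change of 0.26 ± 0.10 had an adjusted p of 0.237. Over the 9 genes, 5 lay higher and 1 lower in stress with no overlap, where 10.1% of all genes tested lay higher and 10.3% lower. The 5 include *G6pc*, which passed the filter only through the stress libraries and had to differ, so it is not counted here. That leaves *Pck1*, *Pck2*, *Slc37a4* and *Ppargc1a* higher and *Ppargc1b* lower.

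PGC-1α, encoded by *Ppargc1a* (chr5:51454250-51567726, minus strand), binds transcription factors to raise mitochondrial genes and, in liver, gluconeogenic genes. It was at 14.4, 13.8 and 11.5 CPM in Ctrl and at 27.0, 24.2 and 35.1 CPM in stress 1+2, 3 and 4+5+6, with each stress library above each Ctrl library. Its order across the stress libraries was that of the enterocyte markers, as for *Slc37a4*, *G6pc3* and *Ppargc1b*, the last of which lay lower in stress. The part of the markers was not tested. The log2 fold change was 1.13 ± 0.18 (SE, adjusted p = 0.0149, edgeR), or 2.18-fold. The adjusted p rose to 0.0699, 0.0685 and 0.0827 without Ctrl 1, 2 and 3, and stress 3 alone, as 1 library with no test, lay 0.87 above Ctrl. The related coactivator gene *Ppargc1b* was at 22.6, 23.8 and 29.4 CPM in Ctrl and at 18.1, 15.1 and 20.6 CPM in stress, also without overlap but in the other direction (log2 fold change -0.49 ± 0.17, adjusted p = 0.196).

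The effect of the hormone itself was read from the CORT and vehicle libraries, where 14656 genes were tested. *Ppargc1a* and *Slc37a4* rose and *Ppargc1b* fell. Among all genes tested 3.64% were called higher and 4.50% lower, and CORT 2 and 4 were the deepest libraries. *Ppargc1a* alone of the 9 rose by more than 2-fold, as did 1.13% of all genes tested. The median log2 fold change of the 9 genes was 0.24, against 0.01 for all genes tested. Of the 9 genes, 4 lay higher and 1 lower in CORT with no overlap, where 15.7% of all genes tested lay higher and 13.0% lower.

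*Ppargc1a* was at 8.86, 13.5 and 11.0 CPM in vehicle 3, 5 and 6 and at 32.4, 33.6 and 27.7 CPM in CORT 2, 4 and 5. The groups stood far apart, at 11.1 ± 2.31 and 31.2 ± 3.14 CPM (mean ± SD, n = 3). The log2 fold change was 1.47 ± 0.17 (SE, adjusted p = 0.00117, edgeR), or 2.77-fold, and the adjusted p stayed at 0.0358 or below in all 14 alternatives. *Ppargc1b* was at 26.4, 28.4 and 21.7 CPM in vehicle and close together at 17.5, 16.8 and 17.3 CPM in CORT. Its log2 fold change was -0.59 ± 0.14 (adjusted p = 0.0297), and leaving out vehicle 3 or 5 or any 1 CORT library raised the adjusted p to between 0.0662 and 0.122, as did limma on log2(FPKM + 1) without a filter (0.0962).

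Since *Ppargc1a* lay higher and *Ppargc1b* lower in both comparisons, their ratio combines both differences and is given as a description. The FPKM ratio of *Ppargc1a* to *Ppargc1b* within a library was 0.378, 0.327 and 0.220 in Ctrl and 0.895, 0.902 and 0.990 in stress. It was 0.190, 0.268 and 0.287 in vehicle and 1.10, 1.18 and 0.935 in CORT. Each treated library thus lay above each of its controls. The group means of the log2 ratio differed by 1.63 in stress and by 2.13 in CORT. An exact two-sided permutation test gave p = 0.1 in each case, the smallest that 3 against 3 libraries can give, so it could not pass the threshold. Between vehicle and Ctrl the ratio differed by -0.30 on the log2 scale (exact permutation p = 0.4).

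**Figure D3:**
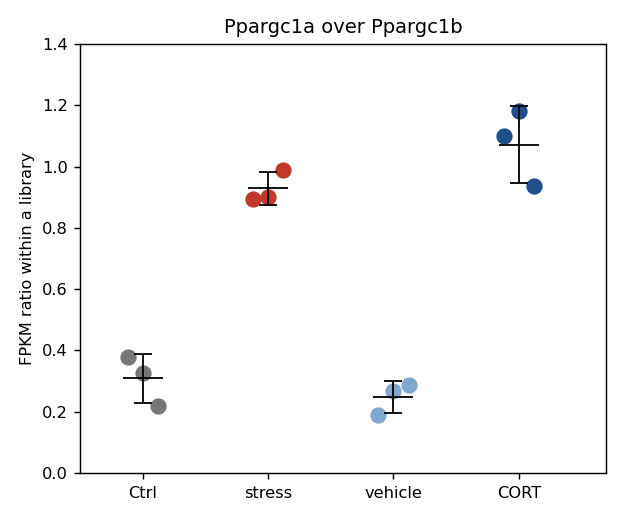
FPKM of *Ppargc1a* divided by that of *Ppargc1b* within each library (vertical axis), by group. Points are libraries and bars are mean ± SD (n = 3). Stress and CORT libraries sit between 0.895 and 1.18, and Ctrl and vehicle libraries between 0.190 and 0.378.

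*Slc37a4* was at 47.0, 43.0 and 48.8 CPM in vehicle and at 63.1, 72.0 and 69.7 CPM in CORT, with a clear gap between the groups. Its log2 fold change was 0.54 ± 0.09 (SE, adjusted p = 0.00579, edgeR), or 1.45-fold, and the adjusted p stayed at 0.0367 or below in all 14 alternatives. The phosphatase that this transporter serves did not show such a gap. *G6pc* had 0, 8 and 7 counts in vehicle and 16, 35 and 14 counts in CORT, or 0.243, 0.601 and 0.484 CPM in CORT. The vehicle libraries were below the limit of 12 counts, so neither a fold nor a p is given. *G6pc3* was at 72.1 to 80.8 CPM in vehicle and 72.0 to 85.4 CPM in CORT, with a log2 fold change of 0.02 ± 0.09.

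*Pck1* was at 1.30, 2.66 and 1.14 CPM in vehicle and at 1.64, 3.69 and 2.39 CPM in CORT, in overlapping groups with a log2 fold change of 0.59 ± 0.45 (adjusted p = 0.487). No CORT library came near the *Pck1* level of stress 1+2 or 4+5+6. The 12 enterocyte markers summed to 877.5, 742.8 and 787.6 CPM in vehicle and 786.1, 835.5 and 715.7 CPM in CORT, with *Fabp2* alone called higher and a median log2 fold change of -0.09. *Pck2* was at 180, 191 and 186 CPM in vehicle and 231, 204 and 202 CPM in CORT. These groups did not overlap, but the log2 fold change of 0.17 ± 0.08 had an adjusted p of 0.217. *Fbp1* (-0.07 ± 0.16, adjusted p = 0.839) and *Pcx* (0.24 ± 0.15, adjusted p = 0.368) did not pass the test either.

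Beside the *Ppargc1a*, *Slc37a4* and *Ppargc1b* calls, markers of other cells were called in CORT as follows. The 6 Paneth cell markers summed to 174.1 to 204.5 CPM in vehicle and 95.4 to 110.4 CPM in CORT, led by *Mmp7*, with 4 called lower. The ISC markers *Ascl2*, *Lgr5* and *Smoc2* were called lower, with log2 fold changes of -0.998, -0.43 and -0.31. Of the goblet cell and enteroendocrine markers edgeR called 0 (0 and 1 at an unadjusted p below 0.05, 0 and 1 by DESeq2), and *Pou2f3* of the tuft cell markers was lower. *Pecam1*, an endothelial gene, was called higher at 1.49 to 3.25 CPM in CORT, while *Cdh5* and the collagen genes *Col1a1* and *Col3a1* were at 0 in each CORT library. *Pecam1* had 16, 5 and 12 counts in vehicle 3, 5 and 6 and passed the filter on low counts only with its CORT libraries. Little is read from that call. The part of these markers in the calls was not tested.

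**Figure D4:**
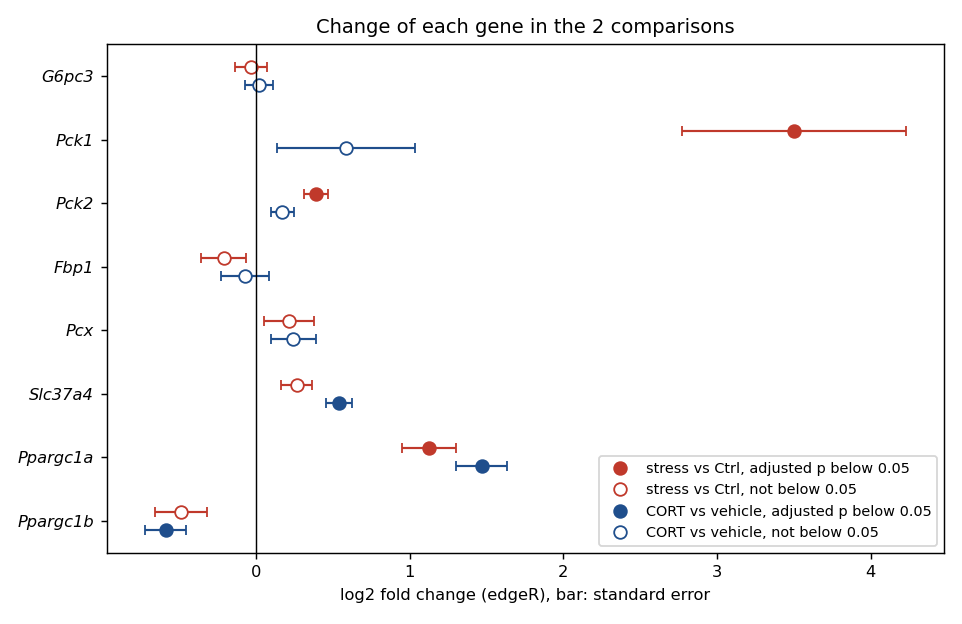
Log2 fold change (horizontal axis, edgeR, bars are SE) of 8 of the genes in stress vs Ctrl (red) and CORT vs vehicle (blue), with filled points for an adjusted p below 0.05. *G6pc* is left out because its fitted fold change has no Ctrl count behind it. *Pck1* is far to the right in stress at 3.50, and *Ppargc1a* is filled in both comparisons.

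Whether a response to restraint differed from that to corticosterone was tested as an interaction over the 12 libraries. No gene of the 9 was called (edgeR, 14415 genes tested, 0.388% called), 3 had an unadjusted p below 0.05, and DESeq2 called *G6pc* alone, which had no Ctrl count and entered the test through its stress counts, so nothing is read from that call. The difference for *Pck1* was 2.90 ± 0.95 on the log2 scale, stress minus CORT (adjusted p = 0.203, or 0.00708 with a difference of 3.42 without stress 3). For *Ppargc1a* the difference was -0.35 ± 0.25 (adjusted p = 0.632), for *Slc37a4* -0.28 ± 0.12 (adjusted p = 0.382) and for *Pck2* 0.21 ± 0.10 (adjusted p = 0.409). Thus the *Slc37a4* call in CORT and the *Pck2* call in stress were not shown to be particular to either treatment.

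The control groups were compared with each other. In this comparison injection, time without food and water and separate experiments cannot be told apart. The time without food and water is given for controls of the restraint protocol only. None of the 8 genes tested was called between vehicle and Ctrl (edgeR, 0.799% of 13642 genes called), 1 had an unadjusted p below 0.05, and DESeq2 called 0. That gene was *Pck2*, higher in vehicle with a log2 fold change of 0.24 ± 0.07 (adjusted p = 0.200) and without overlap, as were 8.51% of all genes tested, so that the vehicle level lay between those of Ctrl and stress. *Ppargc1a* had -0.25 ± 0.20 (adjusted p = 0.714). This comparison shares its libraries with the other comparisons.

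The exposure itself was read from 8 glucocorticoid targets. Of these, 7 rose in stress and 7 in CORT, with median log2 fold changes of 1.63 and 2.29. *Fkbp5*, a chaperone that restrains the receptor, was at 63.6 ± 5.16 CPM in Ctrl and 208.8 ± 36.3 in stress, and at 170.7 ± 29.4 in vehicle and 926.9 ± 46.4 in CORT. *Sgk1*, *Tsc22d3*, *Zbtb16*, *Ddit4*, *Per1* and *Klf9* were also called in both. *Zbtb16* had 40, 5 and 6 counts in Ctrl 1, 2 and 3. It passed the filter on low counts in stress vs Ctrl only with its stress libraries. Nothing is read from its stress call, although the 7 genes and the median for stress include it. *Dusp1*, a phosphatase of stress kinases, did not pass in stress (log2 fold change 0.56, adjusted p = 0.586) or in CORT (1.49, adjusted p = 0.155). Between vehicle and Ctrl, *Fkbp5* was higher (1.42) and *Sgk1* (-1.25) and *Dusp1* (-3.60) were lower.

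Genes around the bypass steps are read against the 1.30% of all genes called higher and 0.590% lower in stress, and the 3.64% and 4.50% in CORT. Of the 16 tested genes for the reversible steps shared with glycolysis, 0 were called in stress (3 at an unadjusted p below 0.05, 1 by DESeq2) and 2 in CORT, where the aldolase gene *Aldoa* fell (-0.28 ± 0.07, adjusted p = 0.0458). Of the 13 glycolysis genes whose steps oppose gluconeogenesis, *Pklr*, pyruvate kinase of liver and red cells, rose in stress (0.53 ± 0.10, adjusted p = 0.0232). In CORT 1 of these 13 was called higher and 3 lower. The hexokinase gene *Hk2* rose (0.75 ± 0.08, adjusted p = 0.0011), while *Hkdc1* and the phosphofructokinase genes *Pfkp* and *Pfkl* fell (-0.66, -0.48 and -0.34). The median log2 fold changes of these opposing genes were 0.25 in stress and 0.08 in CORT.

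Of the substrate genes, edgeR called 0 of 20 tested in stress (5 at an unadjusted p below 0.05, 3 by DESeq2) and 1 higher and 1 lower of 22 in CORT, a share near that of all genes. *Gpt2*, the mitochondrial alanine aminotransferase, which links alanine to pyruvate, rose from 3.52 ± 0.852 CPM in vehicle to 8.21 ± 1.89 CPM in CORT (1.19 ± 0.25, adjusted p = 0.0212). *Slc16a1*, a lactate and pyruvate carrier, fell (-0.44 ± 0.07, adjusted p = 0.00626). *Slc5a1*, the sodium-linked glucose transporter of the brush border, was at 212.8, 193.6 and 189.9 CPM in Ctrl and 363.4, 293.4 and 421.4 CPM in stress, and at 202.4, 190.3 and 183.6 CPM in vehicle and 333.4, 353.9 and 336.1 CPM in CORT. It thus lay higher in each treated library than in any control, and passed the test in both comparisons (0.86 ± 0.13, adjusted p = 0.0102, and 0.81 ± 0.08, adjusted p = 4.74e-04). The fructose transporter gene *Slc2a5* fell in CORT (-1.49 ± 0.25, adjusted p = 0.00696). Of the other genes in the families, *Pprc1*, a further coactivator related to PGC-1, fell in CORT (-0.43 ± 0.08, adjusted p = 0.00949), and *Slc37a2* had 0 counts in each vehicle library and 0.623, 0.532 and 1.11 CPM in CORT 2, 4 and 5. The limit that 12 counts give was 0.709, 0.694 and 0.392 CPM in vehicle 3, 5 and 6, so that CORT 2 and 4 lay below it in vehicle 3 and 5. The gene passed the filter on low counts only through CORT, so neither its fold nor its p is given.

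Of 34 tested transcription factors and cofactors known to act on gluconeogenic genes in liver, 1 rose and 2 fell in stress, where 1.30% and 0.590% of all genes did. In CORT, where 3.64% of all genes rose and 4.50% fell, 6 rose and 11 fell. Their median log2 fold changes were -0.04 and -0.21. *Klf9*, also one of the glucocorticoid targets, rose in both (1.07 ± 0.12, adjusted p = 0.00248, and 1.48 ± 0.10, adjusted p = 1.28e-04), and *Hnf4a*, a master factor of the gut and liver epithelium, fell in both (-0.37 ± 0.08, adjusted p = 0.0440, and -0.40 ± 0.08, adjusted p = 0.0179). *Foxa1*, a pioneer factor, fell in both as well (-0.63, adjusted p = 0.0190, and -0.77, adjusted p = 0.0130). In CORT, *Klf15*, a glucocorticoid-induced factor of amino acid use, and *Foxo3* passed upwards (1.65 ± 0.27 and 0.51 ± 0.09), and *Cebpb*, *Stat3* and *Cebpa* passed downwards (-1.01 ± 0.13, -0.95 ± 0.14 and -0.55 ± 0.08). In the interaction edgeR called 0 of the 34, with 10 at an unadjusted p below 0.05 and 2 called by DESeq2, so no difference between the treatments was shown by the main test.

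PGC-1 coactivators are known to raise a set of mitochondrial genes. Of 30 tested, 2 were called higher in stress, where 1.30% of all genes were, and 23 had a positive log2 fold change, with a median of 0.12 and 8 at an unadjusted p below 0.05. In CORT 1 was called higher and 3 lower, where 3.64% and 4.50% of all genes were, and 17 had a positive log2 fold change, with a median of 0.05. *Pdk4*, which holds pyruvate back from oxidation, was at 0.931, 1.84 and 1.58 CPM in Ctrl and 90.3, 38.0 and 97.4 CPM in stress. It was at 9.57, 9.14 and 8.95 CPM in vehicle and 208.9, 187.9 and 83.8 CPM in CORT. It was the gene of this list that rose in both, by 5.70 ± 0.41 (adjusted p = 1.19e-04) and 4.10 ± 0.31 (adjusted p = 1.85e-04) on the log2 scale, and it was higher in vehicle than in Ctrl by 2.66 (adjusted p = 0.00339). *Cox7a1*, a subunit of cytochrome c oxidase, rose in stress (2.43 ± 0.52, adjusted p = 0.0495). It had 21, 29 and 9 counts in Ctrl 1, 2 and 3 and passed the filter on low counts only with its stress libraries. Little is read from that call. The fatty acid oxidation genes *Acadl*, *Cpt1a* and *Hadha* fell in CORT (-0.66, -0.57 and -0.43), whereas *Acadl* and *Hadha* were higher in vehicle than in Ctrl (1.09 and 0.70, adjusted p = 4.00e-04 and 0.0115).

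The genes whose levels most resembled each called gene were sought over the 12 libraries among 14401 genes, by Pearson's r of log2(CPM + 0.1). Libraries of a group share their treatment, and depth differs between libraries, so the values only describe likeness. Among the genes closest to *Pck1* were *Enpep* (r = 0.980), which encodes a brush border peptidase, and *Clec2h* (0.976). *G6pc* was closest to *Erbb3* (0.951), *Rbp2* (0.949), which is among the enterocyte markers, and *Camk4* (0.946). *G6pc* had 0 counts in each Ctrl library and in vehicle 3, so its r depends on the 0.1 added to the CPM. It is listed here although its test in stress is not counted. *Ppargc1a* was closest to *Arhgap19* (0.984), *Slc19a2* (0.976), a thiamine transporter gene, and *Fam134b* (0.974), and *Ppargc1b* to *Elf4* (0.919), *Fam222a* (0.915) and *Chd4* (0.915). *Slc37a4* was closest to *Zfp963* (0.976), *Abhd2* (0.966) and *Brca2* (0.961), and *Pck2* to *Atp5sl* (0.945), *E230001N04Rik* (0.935) and *Angptl4* (0.932). *Enpep* rose in stress, by 2.64 ± 0.55 on the log2 scale (SE, adjusted p = 0.0444), but did not pass the test in CORT (0.19 ± 0.31, adjusted p = 0.783).

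The promoters were read for motifs of the factors that act on these genes in liver. RefSeq windows from 250 bases before to 50 after the start (GRCm38.p6) were found for 8 of the 9 genes, 11 windows in all. The motifs, searched on both strands, were the glucocorticoid response element (AGAACA and its reverse complement TGTTCT, 3 bases apart) and its half-site AGAACA, the cAMP response element TGACGTCA and its half-site TGACG, the FoxO site GTAAACA and the HNF4 site CAAAGTCCA. Each half-site also lies within its full element. Of 32851 promoters, 0.00913% held the full glucocorticoid element, 19.0% its half-site, 1.79% the full cAMP element, 20.8% its half-site, 3.65% the FoxO site and 0.475% the HNF4 site. *Pck1*, *Ppargc1a* and *Slc37a4* held the cAMP half-site, at bases -90 to -86 of *Pck1* and -49 to -45 of *Ppargc1a* counted from the RefSeq start. *G6pc3* held the glucocorticoid half-site, and none of these letters occurred in the windows of *G6pc*, *Pck2*, *Fbp1* and *Pcx*. Bases outside the windows were not searched, so sites further away are not covered. The full glucocorticoid element occurred in 3 of the 32851 promoters, so its absence from 11 windows says nothing about regulation of these genes. The stretches before the gene start are shown for *Pck1* and *Ppargc1a*, of which *Pck1* had a call in stress and *Ppargc1a* in both comparisons, at chr2:173152823-173153047 (plus strand) and chr5:51567727-51567975 (minus strand). They are written 5′ to 3′ along the gene, with the cAMP half-site, which is on the opposite strand in both, in capitals.
Pck1: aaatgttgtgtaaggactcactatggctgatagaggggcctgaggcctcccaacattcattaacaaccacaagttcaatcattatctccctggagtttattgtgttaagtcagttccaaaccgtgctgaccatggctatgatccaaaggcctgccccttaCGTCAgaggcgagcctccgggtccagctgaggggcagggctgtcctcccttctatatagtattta
Ppargc1a: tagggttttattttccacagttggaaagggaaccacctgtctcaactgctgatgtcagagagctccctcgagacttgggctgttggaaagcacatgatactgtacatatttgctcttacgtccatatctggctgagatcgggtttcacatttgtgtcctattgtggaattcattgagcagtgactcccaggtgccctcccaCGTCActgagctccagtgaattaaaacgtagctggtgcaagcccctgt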

How the data were processed

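RNA of 12 libraries was analysed, 3 in each of 4 groups taken from the labels. The authors aligned paired reads of 150 bp to mm10, and the submitters' processing notes name HISAT2 2.2.1 and StringTie 2.2.1, while the paper's methods name featureCounts. The deposited table holds estimated counts of 47729 genes, of which 47224 matched the reference annotation by identifier. Coverage times length, from the deposited coverage signal, came to 75.0 bases per count in each library, so a read pair gives up to 4 counts. FPKM values were deposited by the authors and were used for levels between genes and as an alternative. No column was left without a sample. Where a symbol was listed more than once (126 symbols), the entry with most counts was taken.

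Counts were rounded and tested with edgeR 4.0.16 in R 4.3.3 (quasi-likelihood test, TMM, filterByExpr, Benjamini-Hochberg adjustment over all genes tested) on the 6 libraries of each comparison and on 12 for the interaction, as stress minus Ctrl, minus CORT minus vehicle. A gene was called at an adjusted p below 0.05. CPM values use TMM factors over the 12 libraries, on which the limit of 12 counts lay between 0.182 (CORT 2) and 0.740 (stress 1+2). The scripts were tested on simulated data. Named are the 9 genes, up to 6 called genes per list and comparison, all glucocorticoid targets and the 3 genes most like each called gene, and examples of the marker lists. The 9 genes and the lists were chosen with earlier results of these data known. Alternatives were DESeq2 1.42.0, its size factors, no filter, at least 10 counts in every library, limma 3.58.1 on log2(FPKM + 1) or log2(FPKM + 0.1), 1 fit of 12 libraries, a 2-fold threshold and leaving out each library. Some single genes that this rule takes are not reported here.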

Additional observations from a re-analysis of the deposited data

Results flagged for a closer look

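By the interaction test (edgeR, adjusted over 14415 genes), 4 genes of the lists differed between stress vs Ctrl and CORT vs vehicle. Both the treated and the control groups enter this difference. Between vehicle and Ctrl, injection, time without food and water and separate experiments cannot be told apart. *Mmp7*, a Paneth cell marker, had an adjusted p of 6.88e-04 and a log2 difference of 2.18 (stress minus CORT), with mean CPM rising from 21.96 (Ctrl) to 40.0 (stress) and falling from 90.5 (vehicle) to 37.0 (CORT), and it was higher in vehicle than in Ctrl by 2.04 (adjusted p = 1.83e-04). *Acadl*, a fatty acid oxidation gene, had an adjusted p of 0.0294 and a difference of 1.05, and was higher in vehicle than in Ctrl by 1.09. *Fabp1*, an enterocyte marker, had an adjusted p of 0.0294 and a difference of 4.65, was higher in vehicle than in Ctrl by 1.92 (adjusted p = 0.0183), and did not pass in CORT (adjusted p = 0.0643). *Rbp2*, another enterocyte marker, had an adjusted p of 0.0355.

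For *Hadha*, *Fabp1* and *Mmp7*, all stress libraries lay above Ctrl and all CORT libraries below vehicle. The log2 difference of *Hadha* was 0.74, its interaction had an adjusted p of 0.0863 and did not pass, and it was higher in vehicle than in Ctrl by 0.70.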

How the results depend on the processing

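*Slc37a4* and *Ppargc1a* in CORT vs vehicle kept their calls in all 14 alternatives. Of 540 refits, 459 kept direction and side of the threshold, 39 lost a call, 4 gained one and 38 changed sign, all of the last in values that did not pass the test. Most refits were of values with no call to lose. In stress vs Ctrl, *Pck1* and *Pck2* each lost the call in 10 of 15 refits and *Ppargc1a* in 8 of 15. In CORT vs vehicle, *Ppargc1b* lost it in 6 of 14. The 4 calls in stress vs Ctrl, which here include *G6pc* although it was tested only through its stress counts, became 0 with no filter on low counts (20756 genes adjusted over), 0 with limma on log2(FPKM + 1), with or without the filter, 1 with log2(FPKM + 0.1) and 0 with stress 3 alone against Ctrl (chosen after seeing the data, with the spread of the Ctrl libraries only), and 0 to 4 when 1 library was left out. The lowest was without Ctrl 1, with 1 without Ctrl 2 or Ctrl 3 and 2 without stress 1+2 or stress 4+5+6. The 1 left without Ctrl 2 or Ctrl 3, and with log2(FPKM + 0.1), was *G6pc*, whose test is not counted. *Pck1*, *Pck2* and *Ppargc1a* all lost their calls in these settings. The 2 left without stress 1+2 or stress 4+5+6 were *G6pc* and *Ppargc1a*. The 3 calls in CORT vs vehicle became 1 above 2-fold, 2 with limma on log2(FPKM + 1) without a filter and 2 to 3 when 1 library was left out. Vehicle vs Ctrl gave 0 in each alternative. The interaction gave 1 with DESeq2 (*G6pc*) and 0 to 2 when 1 library was left out. There were 2 without stress 3 (*G6pc* and *Pck1*) and 1 without vehicle 3 (*G6pc*). Except for the fewer libraries and the larger number of genes tested, the cause was not tested.

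Changes of sign were small. *G6pc3* in stress was 0.0507, 0.0515 and 0.0507 with limma on log2(FPKM + 1), log2(FPKM + 0.1) and log2(FPKM + 1) without filter, and -0.107 to 0.0428 when 1 library was left out. In CORT it was -0.0365, -0.0373 and -0.0365, and -0.0607 to 0.0741. In the interaction it was 0.0872, 0.0888 and 0.0872, and -0.132 to 0.0217. *Pcx* in the interaction was 0.0171, 0.0175 and 0.0171 in these, and -0.114 to 0.0892. *Pcx* in stress 3 alone was -0.00122. *Pcx* between vehicle and Ctrl was -0.00204 with DESeq2's size factors, -0.000593 with at least 10 counts, -0.00298 with 1 fit of 12 libraries, and -0.0820 to 0.119 when 1 was left out. Leaving out 1 library also gave *Fbp1* in CORT -0.209 to 0.0723, *Pck1* between vehicle and Ctrl -0.632 to 0.0807, and *Ppargc1b* -0.0773 to 0.133 there and -0.0179 to 0.218 in the interaction.

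No paired analysis was possible because the groups compared share fewer than 2 replicate numbers. DESeq2 gave no adjusted p for *G6pc* in CORT vs vehicle, and *G6pc* could not be tested with at least 10 counts in every library. Depth limits *G6pc*, whose level in Ctrl and vehicle lay under the limit of 12 counts.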
